A study of Homo sapiens with 6 samples.

Results

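Levels of 10 heterochromatin genes were followed by RNA sequencing in K562, an established human erythroleukaemia cell line. They are 10 of the 33495 genes to which the deposited transcript table could be summed: the 3 heterochromatin protein 1 (HP1) genes CBX1, CBX3 and CBX5, the histone H3 lysine 9 (H3K9) methyltransferases SUV39H1, SUV39H2, SETDB1, EHMT1 and EHMT2, the corepressor TRIM28 and the maintenance DNA methyltransferase DNMT1. The rule is a list of gene names and uses no measured value. All cells carried a doxycycline-inducible short hairpin RNA (shRNA) and were kept under 2 µg/ml puromycin. The NT line carried a non-targeting hairpin, and 2 clones, named c1 and c2, carried a hairpin against CDAN1. Each of the 3 lines gave 1 uninduced library and 1 library after 4 days with 1 µg/ml doxycycline, so no line and state was repeated. Whether NT was a single clone is not given in the sources used here. The name c2 is that of the sample titles, while the deposited tables of that clone carry another clone number, and the titles were followed.

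Methylation of H3K9 is the mark that HP1 proteins bind through their chromodomain, and HP1 in turn recruits the enzymes that write the mark, so that heterochromatin can spread and be copied. SUV39H1 and SUV39H2 write the trimethyl mark of pericentromeric repeats, EHMT1 and EHMT2 form the complex that writes the mono- and dimethyl marks of silent euchromatin, and SETDB1 acts with TRIM28 at sites chosen by zinc finger proteins. CDAN1 encodes a binding partner of the histone chaperone ASF1. Its mutation causes congenital dyserythropoietic anaemia type I, in which erythroblast heterochromatin has a spongy appearance and an abnormal location of HP1-alpha has been described. The question for these libraries was whether the RNA of the heterochromatin machinery differed with the CDAN1 hairpin or with doxycycline.

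The libraries held 28318555 to 32352246 estimated reads, of which 26872686 to 30764486 were assigned to genes. CDAN1 stood at 61.6 CPM, which is reads scaled to a common library size, in uninduced NT, 69.2 in induced NT, 36.1 and 16.7 in uninduced and induced c1, and 54.8 and 29.4 in uninduced and induced c2. The induced libraries of c1 and c2 were thus the lowest of the 6, and uninduced c1 was already below both NT libraries. The erythroid markers matched the label of K562. All 12 erythroid markers examined were at a mean of at least 10 CPM, with a summed level of 14438.9 and 15187.1 CPM in uninduced and induced NT, 14312.8 and 14862.4 in c1, and 10820.5 and 12024.5 in c2. Against NT, 4 of the 12 were lower and none higher in c2, with HBZ, the embryonic zeta globin, at -0.91 ± 0.12 on the log2 scale (adjusted p = 0.0025 in edgeR), and 7 were higher in c1 than in c2. Of all 14161 genes tested, 6.16% were lower and 9.24% higher in c2 than in NT, and 1072 genes were higher in c1 than in c2. Of 8 monocyte and granulocyte markers 6 were at no more than 1 CPM in every library, among them CD14, MPO and ELANE. The other 2, LYZ and SPI1, had means of 80.2 and 14.3 CPM, and the list summed to 77.8 to 115.8 CPM. Of 8 lymphoid markers 4 were at no more than 1 CPM, among them CD3E, with MS4A1 at 0. PTPRC, CD3D and RAG1 were expressed, at means of 104, 16.9 and 15.1 CPM, and the list summed to 86.4 to 193.9 CPM. The 7 megakaryocyte markers summed to 42.8 and 51.3 CPM in NT, 17.2 and 21.2 in c1, and 194.2 and 214.1 in c2. The part of the erythroid and megakaryocyte markers in the differences between lines described below was not tested.

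Of the 10 genes 9 were well expressed. Levels of different genes are compared in TPM, the deposited unit that takes account of transcript length and library total. TRIM28, the scaffold that ties zinc finger repressors to SETDB1, was highest at 417 to 472 TPM over the 6 libraries. CBX3, which gives HP1-gamma, followed at 258 to 302 TPM, and DNMT1, which copies DNA methylation at replication, at 84.6 to 109 TPM. None of these 3 ranges overlapped another. EHMT2 at 44.2 to 58.1 TPM and EHMT1 at 38.1 to 47.1 TPM overlapped each other. The last group held CBX5 at 30.2 to 40.8, CBX1 at 28.7 to 40.0, SUV39H2 at 28.0 to 38.3 and SETDB1 at 27.5 to 33.1 TPM. Its order was not set by these libraries because all 4 ranges overlapped. The range of EHMT1 also overlapped those of CBX5, CBX1 and SUV39H2, so its place above them was not set either. HP1-gamma RNA was therefore far above that of HP1-alpha (CBX5) and HP1-beta (CBX1) in every library.

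SUV39H1 could not be measured. Its sum was 38.7 and 3.6 estimated reads in uninduced and induced NT, 38.1 and 11.2 in c1, and 20.9 and 17.9 in c2. Its transcript SUV39H1-202, of 2871 bases, was listed at 0 in all 6 libraries. The deposited table also held 1 transcript of exactly that length that no source used here assigns to a gene, with 1415 to 1821 estimated reads. It was not counted, and no direction is drawn from the SUV39H1 values. EHMT2 showed a like problem that could be settled. The gene lies in the major histocompatibility complex at chr6:31879759-31897687 (GRCh38, minus strand), and 28 of its 29 transcripts in the table are named by the gene-name table of GENCODE 29 but not by its annotation of the primary assembly. Those 28 held its 3631 to 4677 estimated reads. Salmon divides reads that fit several transcripts, so the split among the 18 EHMT2 transcripts with reads is uncertain and only their sum is used.

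Across the 6 libraries the heterochromatin genes were steady. The coefficient of variation was 4.89% for EHMT1, 6.91% for CBX3, 7.25% for DNMT1, 7.34% for TRIM28, 7.38% for SETDB1 and 8.59% for EHMT2. It was 10.5% for SUV39H2, 12.1% for CBX1 and 13.7% for CBX5. The median of the 9 genes was 7.38%, beside 10.2% over the 9141 genes with a mean of at least 10 CPM. The means of the 9 ran from 45.5 CPM for SUV39H2 to 912 for TRIM28, and no set matched for level was compared. The highest library of a gene exceeded its lowest by 1.14-fold for EHMT1 and by up to 1.46-fold for CBX5.

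**Figure D1:**
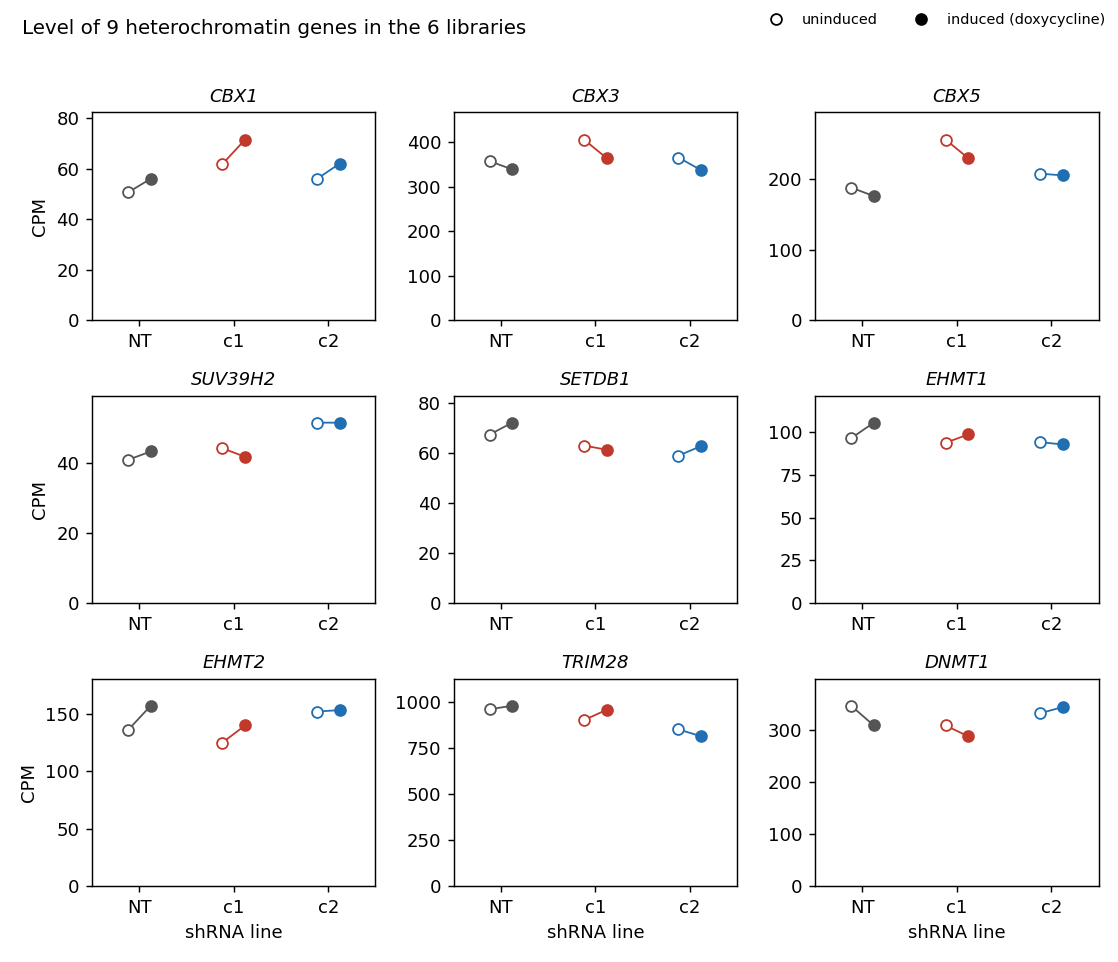
Level in CPM (vertical axes, from 0) of 9 heterochromatin genes in the uninduced (open) and induced (filled) library of each shRNA line (horizontal axis), with a line joining the pair. CBX5 is highest in both c1 libraries (256 and 230 CPM), SUV39H2 in both c2 libraries (51.4 CPM each), and TRIM28 is lowest in both c2 libraries (853 and 816 CPM).

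With the CDAN1 hairpin induced, no heterochromatin gene passed the test. The study's own contrast put induced c1 and c2 against the other 4 libraries. CBX1 stood at 71.6 and 62.0 CPM in induced c1 and c2, and at 50.6, 56.0, 61.9 and 55.9 CPM in uninduced NT, induced NT, uninduced c1 and uninduced c2. Its 2 values with the induced hairpin were the highest of the 6, with 62.0 in induced c2 next to 61.9 in uninduced c1. The log2 fold change of CBX1 was 0.25 ± 0.11 (SE, 2 against 4 libraries; adjusted p = 1 in edgeR's quasi-likelihood test). The other 8 measured genes lay between -0.08 for SETDB1 and 0.07 for CBX5. None of the 10 genes was called, beside 0.0% of the 14161 genes tested, and none of the 10 had an unadjusted p under 0.05, beside 323 of all genes. DESeq2 called 22 genes and none of the 10. With the line as a replicate block edgeR called 5 genes (0.0353%), among them CDAN1 and none of the heterochromatin genes, whose smallest adjusted p was 0.408 for CBX3. In that fit CBX5 stood at -0.09 and SETDB1 at 0.03, each with the sign opposite to the fit without the block.

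The response of each line to doxycycline was small for every heterochromatin gene. CBX1 in the induced library stood at 111% of the uninduced library in NT (95% interval of counting error 103% to 119%), 116% in c1 (109% to 123%) and 111% in c2 (104% to 118%). CBX3 stood at 94.8% in NT (92.1% to 97.6%), 89.7% in c1 (87.4% to 92.1%) and 92.2% in c2 (89.8% to 94.8%). So HP1-beta RNA read higher and HP1-gamma RNA lower with doxycycline in all 3 lines, the non-targeting line included, by amounts beyond counting error. CBX5 stood at 93.5% in NT, 89.7% in c1 and 98.8% in c2, the last within counting error of 100%. These intervals are exact (Clopper-Pearson on the split of the reads) and cover counting error only, and each compares 1 library with 1.

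As a group the methyltransferases and their partners showed no shared direction with doxycycline, and EHMT2 was the only measured one to read higher in all 3 lines. EHMT2 stood at 116% in NT, 112% in c1 and 101% in c2, and EHMT1, its partner, at 109%, 105% and 98.5%. SUV39H2 stood at 106%, 94.5% and 100.0%, each within counting error of no difference. SETDB1 stood at 107%, 97.3% and 106% in NT, c1 and c2. The values of SETDB1 and EHMT1 in c1 and c2, and of EHMT2 in c2, were also within counting error of 100%. TRIM28 stood at 102%, 106% and 95.7%, and DNMT1 at 89.0%, 93.2% and 104%, so for both of them c2 went the other way from NT and c1. Of the 9 genes, 2 were higher and 2 lower in all 3 lines, which is 44.4% with 1 sign, beside 41.3% of the 9141 genes with a mean of at least 10 CPM. The median size of the log2 response over the 9 genes was 0.10 in NT, 0.10 in c1 and 0.05 in c2, beside 0.08, 0.13 and 0.08 over those 9141 genes. The largest was 0.21, for CBX1 in c1.

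**Figure D2:**
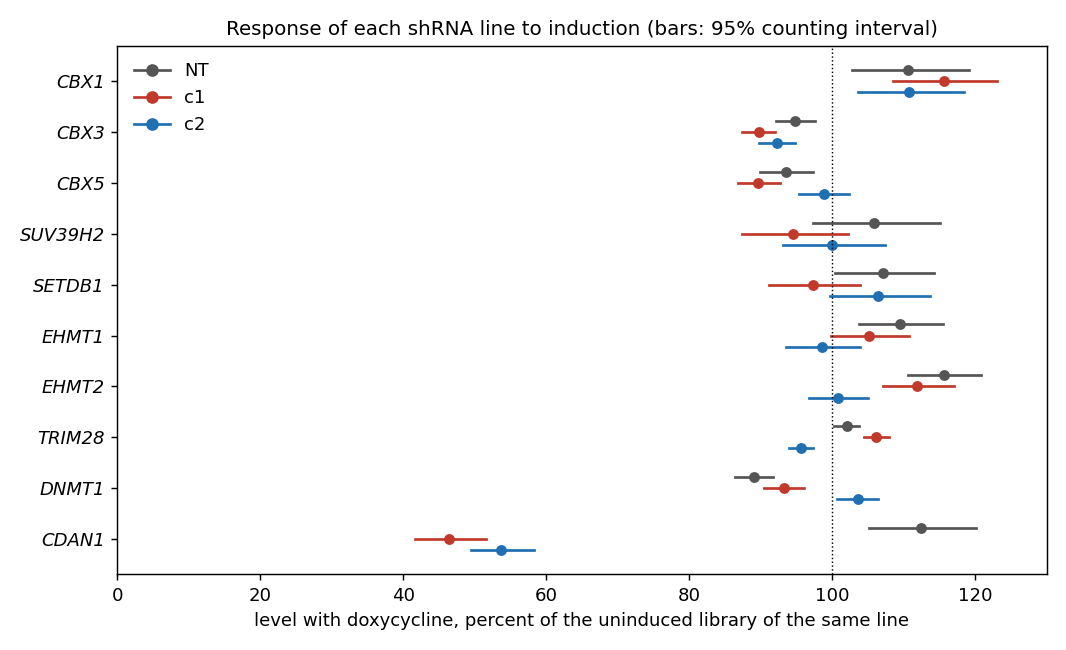
Level with doxycycline as a percentage of the uninduced library of the same line (horizontal axis) for 9 heterochromatin genes and CDAN1, with 95% intervals for counting error (bars), in NT, c1 and c2. CDAN1 is at 46.3% in c1 and 53.7% in c2 and at 112% in NT, while every heterochromatin gene lies between 89.0% and 116%.

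Tests of doxycycline over the lines called none of the 10 genes. Over all 3 lines, induced against uninduced, CBX1 differed by 0.17 ± 0.12 on the log2 scale, CBX3 by -0.12 ± 0.07 and EHMT2 by 0.12 ± 0.09 (SE, 3 against 3 libraries; adjusted p = 1 for each in edgeR). The remaining measured genes lay between -0.09 for CBX5 and 0.06 for EHMT1. edgeR called 0 of the 10 genes and 0.0% of all genes, with 222 genes and, of the 10, only the unmeasured SUV39H1 at an unadjusted p under 0.05. DESeq2 called 6 genes and none of the 10. With the line as a block edgeR called 17 genes (0.12%) and again none of the 10, with an adjusted p of 0.267 for CBX1, 0.288 for CBX3 and 0.34 for EHMT2.

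Within c1 and c2 alone the picture was the same. Induced against uninduced, CBX1 differed by 0.18 ± 0.12 and CBX3 by -0.14 ± 0.10 on the log2 scale (adjusted p = 1 for each in edgeR), and the other 7 measured genes lay between -0.09 and 0.08. None of the 10 genes was called, beside 0.0% of all genes, with none of the 10 and 207 of all genes at an unadjusted p under 0.05, and DESeq2 called 2 genes, neither of them among the 10. The block for the line brought the calls to 183 genes (1.29%), none of them among the 10, whose smallest adjusted p was then 0.343 for CBX1. The response of c1 and c2 minus that of NT was 0.04 ± 0.21 for CBX1, -0.06 ± 0.17 for CBX3 and 0.00 ± 0.24 for CBX5, and lay between -0.13 for EHMT2 and 0.15 for DNMT1 among the rest. None of the 10 was called there, beside 0.0% of all genes, with none of the 10 and 80 of all genes at an unadjusted p under 0.05. DESeq2 called 5 genes and the blocked edgeR fit 25 (0.177%), none of them a heterochromatin gene. These tests could not show that the genes did not respond, since their standard errors reached 0.28 for SUV39H2 in the last of them. These comparisons share libraries and are not independent.

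Between the lines 1 of the 10 genes passed the test in c1 against NT, beside 20.7% of the 14161 genes tested. In c2 against NT 2 passed, beside 15.4%, and between c1 and c2 none, beside 20.2%. CBX5 had the smallest adjusted p. CBX5, the gene of HP1-alpha, lies at chr12:54230940-54280133 (GRCh38, minus strand). It stood at 188 and 176 CPM in uninduced and induced NT, 256 and 230 in c1, and 208 and 205 in c2. Both c1 libraries were above both c2 libraries, which were above both NT libraries. The 2 libraries of a line share that line and differ in doxycycline, so the tests below compare these 3 lines and not hairpins. CBX5 was higher in c1 than in NT by 0.42 ± 0.07 on the log2 scale, a 1.33-fold difference (SE, 2 against 2 libraries; adjusted p = 0.00695 in edgeR). In c2 it stood 0.18 ± 0.07 above NT (adjusted p = 0.132). Between c1 and c2 the difference of 0.23 ± 0.07 did not pass in the fit without a block (adjusted p = 0.0551) and passed with doxycycline state as a block (adjusted p = 0.0179).

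The excess of CBX5 in c1 was carried by its long transcript. CBX5-201, of 11528 bases, starts at the upstream promoter and held most CBX5 reads. Its estimated level was 16.6 and 15.5 TPM in uninduced and induced NT, 24.0 and 21.0 in c1, and 19.1 and 19.2 in c2. The shorter coding transcripts CBX5-202 (1832 bases) and CBX5-204 (894 bases) start 20510 bases further in. Together they stood at 13.7 and 16.0 TPM in NT, 12.7 and 12.6 in c1, and 21.7 and 14.7 in c2. The mean of c1 was thus 1.40-fold that of NT for the long transcript and 0.851-fold for the short pair, with both c1 values of the pair below both NT values. The short pair rests on 359 to 591 estimated reads a library, against 4288 to 7071 for CBX5-201, and no test of single transcripts was run. When gene counts were corrected for the mean transcript length of each library, the gene's difference between c1 and NT was 0.19 on the log2 scale and lost its call (adjusted p = 0.195), and that between c1 and c2 was -0.04. Without the induced NT library the difference between c1 and NT was 0.37 with an adjusted p of 0.0652.

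**Figure D3:**
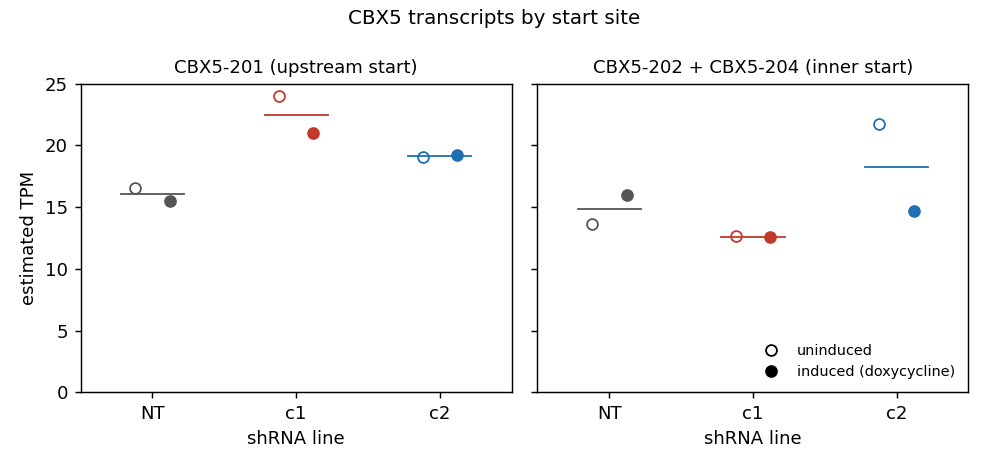
Estimated TPM (vertical axis, from 0) of the CBX5 transcript with the upstream start (left) and of the 2 with the inner start, summed (right), in each shRNA line; open and filled points are the uninduced and induced libraries and bars are their means. The c1 mean is 22.5 TPM on the left, above 16.0 in NT, and 12.6 TPM on the right, below 14.8 in NT.

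The sequences in front of the 2 CBX5 starts are shown because the excess in c1 was read on the transcript of 1 of them. Both are from RefSeq (GRCh38.p14, 5′ to 3′ on the minus strand), cut to bases that lie in no annotated exon. Capitals mark matches, on either strand, to 7 short motifs that are spelled out in the paragraph that follows. The upstream stretch (chr12:54280134-54280192) is all that lies between an annotated exon of CBX5 and one of the neighbouring gene HNRNPA1. The inner stretch (chr12:54259593-54259836) lies inside the span of CBX5-201, in none of its exons.
CBX5 upstream start: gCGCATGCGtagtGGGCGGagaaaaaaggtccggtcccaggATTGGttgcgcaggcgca
CBX5 inner start: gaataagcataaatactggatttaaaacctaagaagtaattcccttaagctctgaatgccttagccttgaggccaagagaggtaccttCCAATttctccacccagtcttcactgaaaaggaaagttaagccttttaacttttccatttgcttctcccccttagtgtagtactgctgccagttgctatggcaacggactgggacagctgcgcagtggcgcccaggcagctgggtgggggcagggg

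The upstream stretch of 59 bases held 1 NRF1 core, 1 GC box and 1 CCAAT box, and the inner stretch of 244 bases held 1 CCAAT box. Over the whole 300-base windows around the starts, the upstream one held 25 CpG dinucleotides and the inner one 4, beside a median of 14 over the 35116 windows in the RefSeq table. The core of the NRF1 site, searched as CGCATGCG, was in 2.02% of those windows. The GC box, which Sp and KLF factors bind, was searched as GGGCGG and was in 45.0%. The CCAAT box, which NF-Y binds, was searched by those letters and was in 34.6%. Of the motifs with no match in the printed CBX5 stretches, the E-box (CACGTG) was in 7.26% of windows and the core of the E2F site (TTGGCGG) in 3.43%. The whole 300-base window of the upstream start did hold 2 E-boxes and 2 E2F cores, and that of the inner start 1 E2F core. The core of the ETS site, searched as CCGGAAG, was in 10.3%. The cyclic AMP response element, searched as TGACGTCA, was in 1.85%. A match is a description of the letters and not a bound site.

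The other HP1 genes were also above NT in both c1 libraries. CBX1 (chr17:48070052-48101521, GRCh38, minus strand) stood at 50.6 and 56.0 CPM in NT, 61.9 and 71.6 in c1, and 55.9 and 62.0 in c2, in the order uninduced and induced. Both c1 values exceeded both NT values, and c2 overlapped each of them. The difference between c1 and NT was 0.32 ± 0.10 on the log2 scale and missed the threshold (adjusted p = 0.0595 in edgeR). It passed with doxycycline state as a block (adjusted p = 0.0113) and in DESeq2 (adjusted p = 0.0304). CBX3 (chr7:26201162-26213356, GRCh38, plus strand) stood at 358 and 339 CPM in NT, 406 and 365 in c1, and 366 and 338 in c2. Its c1 values were above its NT values by 0.15 ± 0.07 on the log2 scale (adjusted p = 0.207). Of the 10 genes 1 was called in c1 against NT, CBX5, higher in c1, beside 20.7% of the 14161 genes tested in either direction and 9.6% higher. With the block 2 were called, CBX5 and CBX1, beside 28.0%. The median log2 difference of the 9 measured genes was -0.06, and that of all genes -0.01.

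In c2 the genes that differed from NT were another pair. SUV39H2, a writer of the trimethyl mark (chr10:14878820-14904315, GRCh38, plus strand), stood at 40.8 and 43.2 CPM in NT, 44.1 and 41.7 in c1, and 51.4 and 51.4 in c2. Both c2 libraries were above the other 4. The difference from NT was 0.29 ± 0.08 on the log2 scale, a 1.22-fold excess (adjusted p = 0.0468 in edgeR). TRIM28 (chr19:58544091-58550722, GRCh38, plus strand) stood at 962 and 982 CPM in NT, 903 and 959 in c1, and 853 and 816 in c2. Both c2 libraries were the lowest, and TRIM28 was lower in c2 than in NT by -0.22 ± 0.06 on the log2 scale, a fold of 0.858 (adjusted p = 0.0397). These 2 libraries were also the lowest of the 6 in the summed erythroid markers and the highest in the megakaryocyte markers. Both calls were marginal. They were lost when any 1 of the 4 libraries of NT and c2 was left out, with adjusted p between 0.135 and 0.232 for SUV39H2 and between 0.116 and 0.236 for TRIM28. They were lost too with a transcript length correction, where TRIM28 stood at -0.12 (adjusted p = 0.268) and SUV39H2 at 0.34 (adjusted p = 0.0679).

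Of the 10 genes 2 were called in c2 against NT, 1 higher and 1 lower, beside 15.4% of all genes, with 9.24% higher and 6.16% lower. The same 2 were called with the block, beside 21.7%. SETDB1, the partner of TRIM28, stood at 67.3 and 72.0 CPM in NT, 62.9 and 61.2 in c1, and 58.9 and 62.7 in c2. Both clones were below NT without overlap, by -0.17 ± 0.08 in c1 (adjusted p = 0.162) and -0.20 ± 0.08 in c2 (adjusted p = 0.127), and neither difference passed. The median log2 difference of the 9 measured genes between c2 and NT was 0.04, and that of all genes 0.00.

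Between c1 and c2 none of the 10 genes was called, beside 20.2% of all genes, although 5 of the 10 had an unadjusted p under 0.05, beside 4823 of the 14161 genes tested. DESeq2 called 1 of the 10, CBX5, beside 2956 of the 14161 genes tested. With doxycycline state as a block, 3 of the 10 were called, beside 26.7% of all genes. They were CBX5, given above, and SUV39H2 and EHMT2. SUV39H2 was lower in c1 by -0.26 ± 0.08 (adjusted p = 0.0422 with the block and 0.0551 without). EHMT2, the catalytic partner of EHMT1, stood at 125 and 140 CPM in c1 and 152 and 153 in c2, with NT between 136 and 157. It was lower in c1 by -0.21 ± 0.06 with the block (adjusted p = 0.0445) and by -0.20 ± 0.09 without (adjusted p = 0.144). DNMT1 stood at 346 and 308 CPM in NT, 308 and 287 in c1, and 332 and 343 in c2. Its difference of -0.18 ± 0.07 between c1 and c2 did not pass (adjusted p = 0.125).

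**Figure D4:**
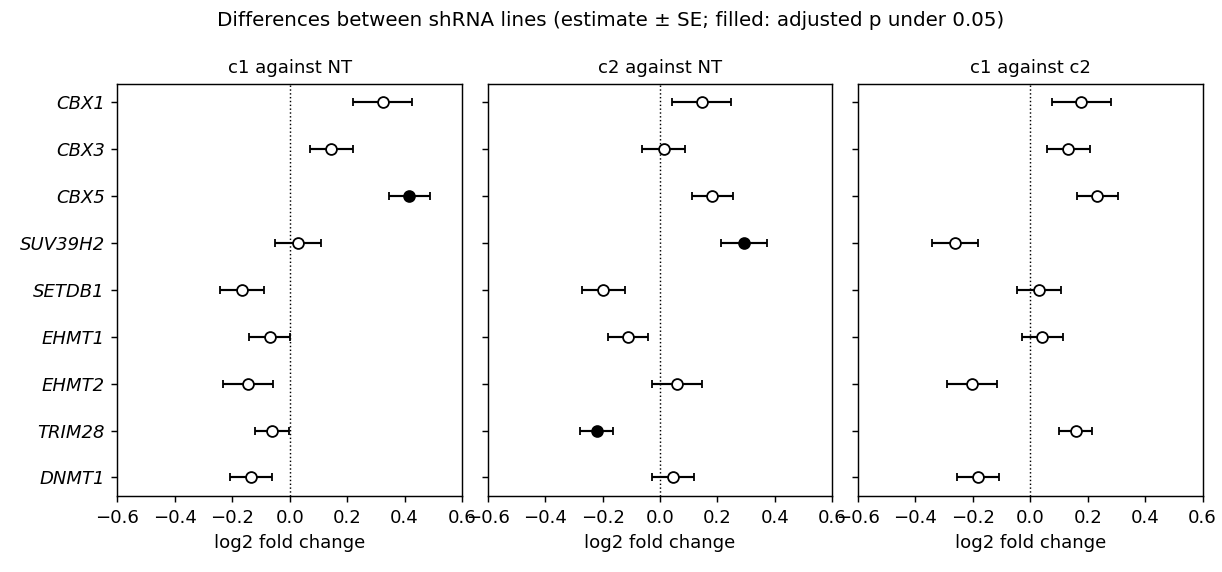
Log2 fold change (horizontal axis) of 9 heterochromatin genes between pairs of shRNA lines, as the edgeR estimate with its SE, 2 libraries a line. Filled points have an adjusted p under 0.05: CBX5 at 0.42 in c1 against NT, and SUV39H2 at 0.29 and TRIM28 at -0.22 in c2 against NT.

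The promoter stretch of SUV39H2 is shown as that of the methyltransferase called between lines. It is from RefSeq (GRCh38.p14, plus strand, chr10:14878687-14878819), 5′ to 3′ and cut in the same way, and capitals mark a match to the same 7 motifs.
SUV39H2: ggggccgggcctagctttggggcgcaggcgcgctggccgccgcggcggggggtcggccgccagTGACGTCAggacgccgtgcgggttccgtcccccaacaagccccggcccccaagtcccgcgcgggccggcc

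The stretch held 1 cyclic AMP response element in 133 bases, and its whole window held 44 CpG dinucleotides and 2 GC boxes. Most SUV39H2 reads in every library went to SUV39H2-205, a transcript annotated as a target of nonsense-mediated decay, which had 644 and 681 estimated reads in NT, 766 and 804 in c1, and 945 and 983 in c2. The main coding transcript SUV39H2-202 had 280 and 263 estimated reads in NT, 314 and 281 in c1, and 374 and 306 in c2. Those reads are not scaled for library size, which was larger in c2 than in NT. In TPM SUV39H2-205 stood at 9.52 and 10.3 in NT and 13.6 and 13.6 in c2. SUV39H2-202 stood at 11.39 and 11.01 TPM in NT and 14.87 and 11.62 in c2, so its induced c2 library lay next to NT. As a share of TPM, SUV39H2-205 made up 34.0% to 37.2% of the gene and SUV39H2-202 made up 30.3% to 40.7%.

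Single transcripts of TRIM28 moved apart from its sum. TRIM28-201, the full coding transcript, made up 73.4% to 84.1% of the TRIM28 TPM. TRIM28-202, a shorter coding form of 2709 bases, had 301 and 273 estimated reads in NT, 616 and 410 in c1, and 918 and 805 in c2, so it was highest in the line where the gene's sum was lowest. TRIM28-212, which retains an intron, had 23.3 and 9.7 estimated reads in NT, 306 and 11.3 in c1, and 299 and 237 in c2. Its uninduced c1 library stood with c2, and its induced c1 library with NT. These shares are estimates for overlapping transcripts and were not tested.

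Lists of genes around the heterochromatin machinery were read in the same comparisons. Of 13 partners of the H3K9 methyltransferases and members of the HUSH silencing complex, none was called in any comparison of induction by edgeR, with or without the block. Against NT, 2 of the 13 (15.4%) were higher in c1, beside 9.6% of all genes. TRIM33, a relative of TRIM28, was higher by 0.39 ± 0.06 (adjusted p = 0.00347) and TRIM24, another relative, by 0.36 ± 0.09 (adjusted p = 0.0261). TRIM33 stood at 140 and 138 CPM in NT, 181 and 182 in c1, and 153 and 155 in c2. In c2, PRDM2, also an H3K9 methyltransferase, was higher than in NT by 0.35 ± 0.07 (adjusted p = 0.0161), the only 1 of the 13 (7.69%) beside 9.24% of all genes. With the block 4 of the 13 (30.8%) were higher: TRIM24, PRDM2, ATF7IP2 and FAM208A, the TASOR subunit of HUSH. They stand beside 1759 of the 14161 genes tested, and the difference of these shares was not tested. ATF7IP2, a relative of the SETDB1 cofactor ATF7IP, stood at 61.0 and 47.9 CPM in c1 and 93.1 and 84.0 in c2, and was lower in c1 by -0.70 ± 0.12 (adjusted p = 0.00537). With the block it was also lower in c1 than in NT, by -0.33 ± 0.08 (adjusted p = 0.0184). The median log2 difference of the 13 was 0.13 in c1 and 0.12 in c2 against NT, beside -0.01 and 0.00 over all genes.

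Of 16 genes for HP1 partners and chaperones, none was called with induction. In each comparison of lines 1 of the 16 (6.25%) was called, beside 20.7% of all genes in c1 against NT, 15.4% in c2 against NT and 20.2% between c1 and c2, and the difference of these shares was not tested. KMT5B, which methylates H4 lysine 20 downstream of HP1, stood at 35.8 and 33.6 CPM in NT, 49.0 and 48.6 in c1, and 41.0 and 38.7 in c2. It was the 1 partner called in c1 against NT, higher by 0.49 ± 0.08 (adjusted p = 0.00625), and was higher in c1 than in c2 by 0.29 ± 0.08 (adjusted p = 0.0413). With the block LBR, CHD4 and SMCHD1 joined it in c1 against NT, each higher by between 0.19 and 0.23. CHAF1B, a subunit of the chromatin assembly factor that binds HP1 at replication forks, was lower in c2 than in NT by -0.34 ± 0.08 (adjusted p = 0.0259). With the block 2 partners (12.5%), SMCHD1 and LRIF1, were higher in c2, beside 1759 of the 14161 genes tested. The median of the 16 was 0.08 in c1 and 0.01 in c2 against NT.

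The enzymes that remove H3K9 methylation were read as the counterpart of the writers. Of 11 demethylase genes 10 were tested, none was called with induction, and none was called against NT in the fits without a block. Those fits called 20.7% of all genes in c1 and 15.4% in c2, and the difference of these shares was not tested. KDM7A was higher in c1 than in c2 by 0.48 ± 0.11 (adjusted p = 0.0168), with 40.8 and 44.6 CPM in c1 and 28.2 and 32.9 in c2. It was 1 of 10 (10.0%), beside 1072 of the 14161 genes tested. KDM3A passed in c1 against NT only with the block (0.28 ± 0.07, adjusted p = 0.0205), 1 of 10 higher beside 1900 of the 14161 genes tested.

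Of 17 genes of DNA methylation other than DNMT1, 15 were tested and none was called with induction. In c1 against NT 3 of the 15 (20.0%) were higher, beside 9.6% of all genes, and 1 was lower, beside 1574 of the 14161 genes tested. With the block 4 were higher and 2 lower, beside 1900 and 2072 of the genes tested. In c2 against NT 1 (6.67%) was higher and 1 lower, beside 9.24% and 6.16% of all genes. With the block the counts were 2 and 2, beside 1759 and 1309 of the 14161 genes tested. The differences of these shares were not tested. TET2, an enzyme that oxidises methylcytosine, stood at 23.4 and 19.3 CPM in NT, 32.2 and 30.0 in c1, and 29.2 and 28.2 in c2. It was higher than in NT in c1 by 0.54 ± 0.11 (adjusted p = 0.0145) and in c2 by 0.43 ± 0.11 (adjusted p = 0.0415). ZBTB33, which binds methylated DNA, was also higher in c1, by 0.43 ± 0.11 (adjusted p = 0.0322), while TET3 was lower by -0.35 ± 0.07 (adjusted p = 0.015). GADD45A was lower in c2 by -0.32 ± 0.08 (adjusted p = 0.033). DNMT3A, which sets new DNA methylation, passed only with the block, higher than NT in c1 by 0.44 ± 0.11 (adjusted p = 0.021) and in c2 by 0.38 ± 0.11 (adjusted p = 0.0432). The median of the 15 was 0.07 in c1 and 0.04 in c2 against NT.

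Several of these genes follow the cell cycle, so cycle genes were read beside them. Of 17 genes of S phase none was called with induction. In c1 against NT 1 was higher, RRM2 by 0.23 ± 0.06, and 3 lower, MCM5, SLBP and CDC45, by between -0.28 and -0.23, with a list median of 0.00. These 4 of 17 calls stand beside 20.7% of all genes. In c2 against NT 1 was called, MCM7, higher by 0.23 ± 0.06, beside 15.4% of all genes. Between c1 and c2 SLBP, MCM7, CDC45 and TYMS were lower in c1, 23.5% of the 17, beside 1793 of the 14161 genes tested. Of 15 genes of G2 and M phase none was called with induction without the block. With it 1 of the 15 (6.67%), AURKA, was lower in induced c1 and c2, beside 123 of the 14161 genes tested. Its difference was -0.33 on the log2 scale (adjusted p = 0.0416 in edgeR). Against NT, KIF11 and CENPE were higher in c1 and CCNB2 and BUB1B lower, with a list median of 0.14, and these 4 of 15 calls stand beside the same 20.7%. With the block CCNA2 was among 4 higher in c1, beside 1900 of the 14161 genes tested. None was called in c2, with a median of 0.09. With the block 1 of the 15 (6.67%), CENPF, was higher there, beside 1759 of the 14161 genes tested. The part of the cell cycle in the differences of CBX5, SUV39H2 and TRIM28 was not tested.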

How the data were processed

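RNA sequencing of 6 K562 libraries was analysed. The submitters' processing notes name Salmon 1.5.2 and the build GRCh37 (hg19). Per the file headers, the deposited values are an estimated count of reads and a TPM value for each transcript. No source used here gives the strand, the trimming or the transcript annotation. Where genes overlap, reads on opposite strands may therefore not be separated.

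Transcripts were joined to genes by GENCODE 29, on GRCh38: 151039 (90.3%) by its annotation and 3345 (2.0%) by its gene-name table. The other 12884 (7.7%), with 4.908% to 5.106% of a library's reads, were left out. Estimated counts were summed and rounded. CPM used TMM scaling. edgeR 4.0.16 in R 4.3.3 (two-sided quasi-likelihood test, p adjusted over all genes by Benjamini-Hochberg, threshold 0.05) tested the 14161 of 21276 genes with reads that passed its filter on low counts (smallest group of 2), all 10 heterochromatin genes among them. Its SE here is the log2 fold change divided by the root of the F statistic. "Called" means an adjusted p under 0.05. DESeq2 1.42.0 was an alternative. Scripts were tested on simulated data.

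The line pairs an induced with an uninduced library. Over 9141 genes, deviations from the state mean correlated by 0.706 (NT), 0.778 (c1) and 0.833 (c2) within a line and by -0.565 to -0.269 between lines. Nothing in the labels says that the libraries of a group came from repeated cultures of a line, so p-values measure the spread between these libraries.

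The genes and lists were chosen with earlier results of these data known. All 10 heterochromatin genes were named, and of related lists those called with or without the block, up to 5 of smallest p per list and comparison. One gene that this rule names is not reported here. For genes spanning over 0.5 in log2 CPM the 3 nearest genes were named. Alternatives were RLE size factors, no filter, DESeq2, a transcript length offset, unmatched transcripts kept, blocks, libraries left out in turn, TPM in place of CPM and, added after seeing the data, the annotation's matches alone.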

Additional observations from a re-analysis of the deposited data

Results flagged for a closer look

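One signal lies outside the values used for the heterochromatin genes. The transcript of 2871 bases that no source used here assigns to a gene had 1415 estimated reads in its lowest library and 1821 in its highest. It was the only such transcript of that length, out of 21 transcripts of 2871 bases in the table, and SUV39H1-202, of the same length, was listed at 0 in all 6 libraries. Whether its reads belong to SUV39H1 was not tested.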

How the results depend on the processing

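As reported, edgeR called no gene in the 4 comparisons of induction. For induced c1 and c2 against all other libraries the count was 5 with the line as a replicate block, 25 with that block and doxycycline, 22 in DESeq2 and 114 in DESeq2 with the block. For induced against uninduced c1 and c2 it was 183 with the block, 2 in DESeq2 and 68 with both. For the response of c1 and c2 minus that of NT it was 25, 5 and 7, and over all 3 lines 17, 6 and 145. None of the heterochromatin genes was among these calls, nor with any library left out, though the response minus that of NT could not be fitted without either NT library.

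Between lines, the transcript length offset lowered the calls to 1843 genes and 0 of the 10 in c1 against NT and to 1407 and 0 in c2 against NT. Keeping unmatched transcripts gave 1319 and 0 in c2 against NT. There 1 of the 10 was called without the filter, with the annotation's matches alone or with DESeq2 and the block. Those fits called 2099 of 21276, 2122 of 14075 and 2221 of 14161 genes tested. In c1 against NT 2 of the 10 were called with the block, in DESeq2 and with both, beside 3972, 3053 and 2942 of the 14161 genes tested. Between c1 and c2 3 were called with the block and 1 in DESeq2, with DESeq2 and the block, and without the filter. In that order these fits called 3776, 2956 and 2779 of 14161 genes tested, and 2798 of 21276. With 1 library left out, the lone library of a line is assumed to vary like the rest, and the counts were 1061 to 2939 genes and 0 to 2 of the 10 in c1 against NT, 806 to 2787 and 0 to 2 in c2 against NT, and 1153 to 2554 and 0 to 1 between the clones. The CBX5 difference between c1 and c2 turned to -0.035 with the length offset. With the line as a block, small differences of uncalled genes in induced c1 and c2 against all other libraries changed sign, CBX5 from 0.07 to -0.09 and SETDB1 from -0.08 to 0.03. In the related gene lists the block also added calls between lines, not all of which are named. The cause of these shifts was not tested, beyond the smaller number of libraries where 1 was left out.

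SUV39H1 had 4 to 39 reads, and whether depth or the assignment of its reads limits it was not tested. Among the measured genes, counting error covered every doxycycline response of SUV39H2, those of SETDB1 and EHMT1 in c1 and c2, and those of CBX5 and EHMT2 in c2. The number of libraries limits the precision of every test.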

Other observations

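The zinc finger genes named ZNF with a number, many of which recruit TRIM28 and SETDB1, were counted as a group. Of 469, 430 passed the filter, and edgeR called none with induction, with or without the block. Against NT, 28 were higher and 27 lower in c1, with a median log2 difference of 0.03, and 36 were higher and 11 lower in c2, with a median of 0.01, beside -0.01 and 0.00 over all genes. With doxycycline state as a block the counts were 48 higher and 35 lower in c1, and 50 higher and 21 lower in c2. Over the 14161 genes tested they were 1900 and 2072 in c1, and 1759 and 1309 in c2. In c1, 6.51% of the zinc finger genes tested were called higher and 6.28% lower. Of all 14161 genes tested, 9.6% were higher and 1574 genes lower in c1. In c2, the line in which TRIM28 was lower than in NT, 8.37% of the zinc finger genes tested were called higher and 2.56% lower, beside 9.24% and 6.16% of all genes. The difference of these shares was not tested.

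CBX5 was the one measured heterochromatin gene whose log2 CPM spanned over 0.5. The genes whose centred log2 CPM lay nearest to it over the 6 libraries were NIFK (root mean square distance 0.022), FAM111A (0.0225) and CUL1 (0.0227). For SUV39H1, whose values rest on 4 to 39 reads, the nearest were FRYL, SAGE1 and INPP1, at distances of 0.666 to 0.697.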
